A study of Mus musculus with 81 samples.

Results

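Wfdc17, Wfdc21 and Slpi encode small secreted proteins of the whey acidic protein (WAP) family. They were measured in bone marrow neutrophils of 40 groups of inbred mice. The members were chosen by their gene symbol in the platform's gene table, and the choice was made with earlier results of the same arrays known. The values that drew attention were the large spread of Wfdc17 among strain means, so the spread of the 3 genes among strains is given as a description, with no test. Each member had 1 probe set, and the 3 genes stand among 19752 named genes on 24922 probe sets.

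Cells carrying both CD11b and Ly6G were sorted from bone marrow of male mice aged 6 weeks, and every array held RNA pooled from several mice of 1 strain. There were 81 arrays. C57BL/6J had 5, FVB/NJ and SWR/J had 1 each, and the other 37 groups had 2. Groups carry the strain name of the background label and all are inbred lines, among them KK.Cg-Ay/J, which by its name carries the Ay allele of agouti. In 5 groups the sample title and the background label named different strains. They are called titled BPL (labelled BALB/cByJ), titled BTBR (labelled BPL/1J), titled Balb (labelled BTBR T+ tf/J), titled C57BR (labelled CBA/CaJ) and titled DBA2 (labelled DBA/1LacJ), and which label is right was not settled. Whether the 2 arrays of a strain came from separate sorts is given only as far as the label of a replicate goes, so errors measure the spread between these pools.

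Array medians lay between 97.2 and 114.8 intensity units. The 13 measured neutrophil markers, among them Ly6g, Itgam and S100a8, had list means between 13.32 in titled BTBR and 13.45 in SEA/GnJ on the log2 scale. The library labelled NZB/BINJ replicate 1 stood apart: its median correlation with the other arrays was 0.962, and it correlated at 0.976 with the second NZB/BINJ array. Values set by NZB/BINJ are given with both arrays and, beside them, without this one. In such sorted pools fewer cells of a type and less RNA per cell cannot be told apart. Levels below are log2 intensities as mean ± SD over the arrays of a strain, and differences are differences of log2 intensity.

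The WAP domain is a compact fold held by disulfide bonds, and many of its carriers block serine proteases. Slpi, the secretory leukocyte peptidase inhibitor, inhibits neutrophil elastase and cathepsin G, is kept in neutrophil granules and is also secreted by epithelia. Wfdc17, also known as AMWAP, is known from activated macrophages and microglia, where it was described as damping inflammatory gene expression. Wfdc21 is a secreted WAP protein of the same gene cluster. Elastase, cathepsin G and proteinase 3 are made early in granulocyte development and stored, so a neutrophil carries these proteases and some of their inhibitors in the same cell.

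The promoter windows are shown because the strain means of Wfdc17 and its next neighbour Wfdc18 gave an r of 0.68, while those of Wfdc17 and Slpi gave -0.023 over all 40 strains. Each window holds the 250 bases before the annotated start, 5′ to 3′ in the direction of the gene, from RefSeq on GRCm38.p6, which is the C57BL/6J sequence. Capitals mark matches, on either strand, to 6 motifs: C/EBP (TTNNGNAAT), PU.1 (GAGGAAG), AP-1 (TGANTCA), NF-kB (GGGNNTTCC), STAT (TTCNNNGAA) and the TATA box (TATAAA).
Wfdc17, chr11:83703806-83704055, plus strand: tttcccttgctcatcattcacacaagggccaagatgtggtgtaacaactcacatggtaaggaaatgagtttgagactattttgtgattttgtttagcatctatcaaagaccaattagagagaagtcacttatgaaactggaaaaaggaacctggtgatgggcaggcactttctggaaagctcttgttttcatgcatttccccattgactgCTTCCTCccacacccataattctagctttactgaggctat
Wfdc18, chr11:83708754-83709003, plus strand: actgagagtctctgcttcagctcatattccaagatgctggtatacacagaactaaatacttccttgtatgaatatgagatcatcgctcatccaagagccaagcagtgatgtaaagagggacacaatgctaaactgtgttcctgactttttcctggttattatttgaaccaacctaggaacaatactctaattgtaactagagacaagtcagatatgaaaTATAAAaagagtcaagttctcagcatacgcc
Slpi, chr2:164356508-164356757, minus strand: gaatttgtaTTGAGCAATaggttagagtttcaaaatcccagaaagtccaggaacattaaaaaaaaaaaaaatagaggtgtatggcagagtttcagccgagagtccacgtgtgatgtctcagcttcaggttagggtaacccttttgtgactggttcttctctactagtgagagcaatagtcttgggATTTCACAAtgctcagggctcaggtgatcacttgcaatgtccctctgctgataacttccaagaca

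Wfdc17 held 1 match, to the PU.1 motif on the opposite strand, 40 to 34 bases before the start. Wfdc18 held a TATA box 31 to 26 bases before the start. Slpi held 2 matches to the C/EBP motif, 241 to 233 bases before the start and, on the opposite strand, 65 to 57 bases before it. The motifs are common: of 32851 promoter windows of this length in the RefSeq table, 10.6% held the PU.1 motif, 12.4% the TATA box and 10.2% the C/EBP motif. The AP-1, NF-kB and STAT motifs were in 6.75%, 4.98% and 7.02% of windows and in none of these 3. A match describes letters of the reference strain and was not tied to the measured values, and the windows of the other strains were not examined.

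Wfdc17 had the widest range of the 3 genes. CAST/EiJ, a strain derived from wild mice, had the lowest level at 5.49 ± 0.53 (SD, n = 2) and DDY/JclSidSeyFrkJ the highest at 12.24 ± 0.77 (SD, n = 2), a 108-fold range as measured. Both CAST/EiJ arrays, at 58.3 and 34.6 intensity units, lay below the median of every array (97.2 or more). No background level was used here, so whether they measure the transcript above background, or a sequence variant under the probes, was not tested. The median of the 40 strain means was 9.86 and their SD was 1.52. On the linear scale single arrays ran from 34.6 intensity units in a CAST/EiJ array to 7084 in a DDY/JclSidSeyFrkJ array. For C57BL/6J the 5 arrays stood at 9.47, 10.28, 10.69, 9.20 and 9.74, near the middle of the strains. The levels filled the range almost without a break: 35 strains lay at 8 or more, 27 at 9 or more, 17 at 10 or more, 8 at 11 or more and 3 at 12 or more.

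At the low end, 5 strains lay under 8. The CAST/EiJ arrays were at 5.86 and 5.11, below every array of every other strain. SEA/GnJ followed at 7.47 and 6.56, CBA/J at 7.06 and 7.21, LP/J(676) at 8.01 and 6.74 and CBA/CaJ at 7.97 and 7.08. The arrays of these last 4 strains overlapped one another. At the high end, DDY/JclSidSeyFrkJ had arrays at 11.70 and 12.79, NZB/BINJ at 12.65 and 11.72, and SJL/J at 11.51 and 12.76. These 3 strains overlapped as well, and the highest NZB/BINJ value came from the array that stood apart. Without it NZB/BINJ is at 11.72. NON/ShiLtJ with 11.83 and 11.72 and C57L/J (668) with 11.50 and 11.74 came next.

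Between these ends the order from low to high began with 129S1/SvImJ at 8.37 ± 0.065, titled Balb at 8.60 ± 0.20, titled BTBR at 8.60 ± 0.81, titled BPL at 8.62 ± 0.13 and A/J at 8.62 ± 0.11. It went on with NOD/ShiLtJ at 8.70 ± 0.051, C57BLKS/J(662) at 8.76 ± 0.44, C3H/HeJ at 8.96 ± 0.36, PWD/PHJ at 9.24 ± 0.54 and MSM/Ms at 9.27 ± 1.13. P/J was at 9.36 ± 0.020, SM/J at 9.37 ± 0.15, NZW/LacJ at 9.42 ± 0.0062, RIIIS/J at 9.70 ± 0.80 and KK.Cg-Ay/J at 9.85 ± 0.99. Neighbours in this stretch differed by less than 2 standard errors (SE) of the fitted difference. C57BL/6J (9.87 ± 0.61), FVB/NJ (9.95, 1 array), MRL/MpJ (9.98 ± 0.89), WSB/EiJ (10.13 ± 0.71), titled DBA2 (10.14 ± 1.14) and JF1/Ms (10.15 ± 0.32) formed the centre. Above them lay C57BL/10J at 10.20 ± 0.15, CE/J at 10.42 ± 1.09, PL/J at 10.56 ± 0.15, LGJ at 10.69 ± 0.085 and AKR/J at 10.70 ± 0.038. MA/MyJ was at 10.74 ± 0.26, titled C57BR at 11.11 ± 0.34, NOR/LtJ at 11.24 ± 0.0075 and SWR/J at 11.45 in its 1 array. Of the 39 steps between neighbouring strains only that from CAST/EiJ to SEA/GnJ, 1.53, was more than 2 SE. Over all 780 pairs of strains, 509 differed at least 2-fold and in 621 the arrays of one strain all lay above those of the other. The share of pairs lying apart was 79.6%, beside 56.5% for Wfdc21 and 62.8% for Slpi, and it was not computed over all probe sets. With 2 arrays per strain, arrays can lie apart without a difference between the strains.

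**Figure D1:**
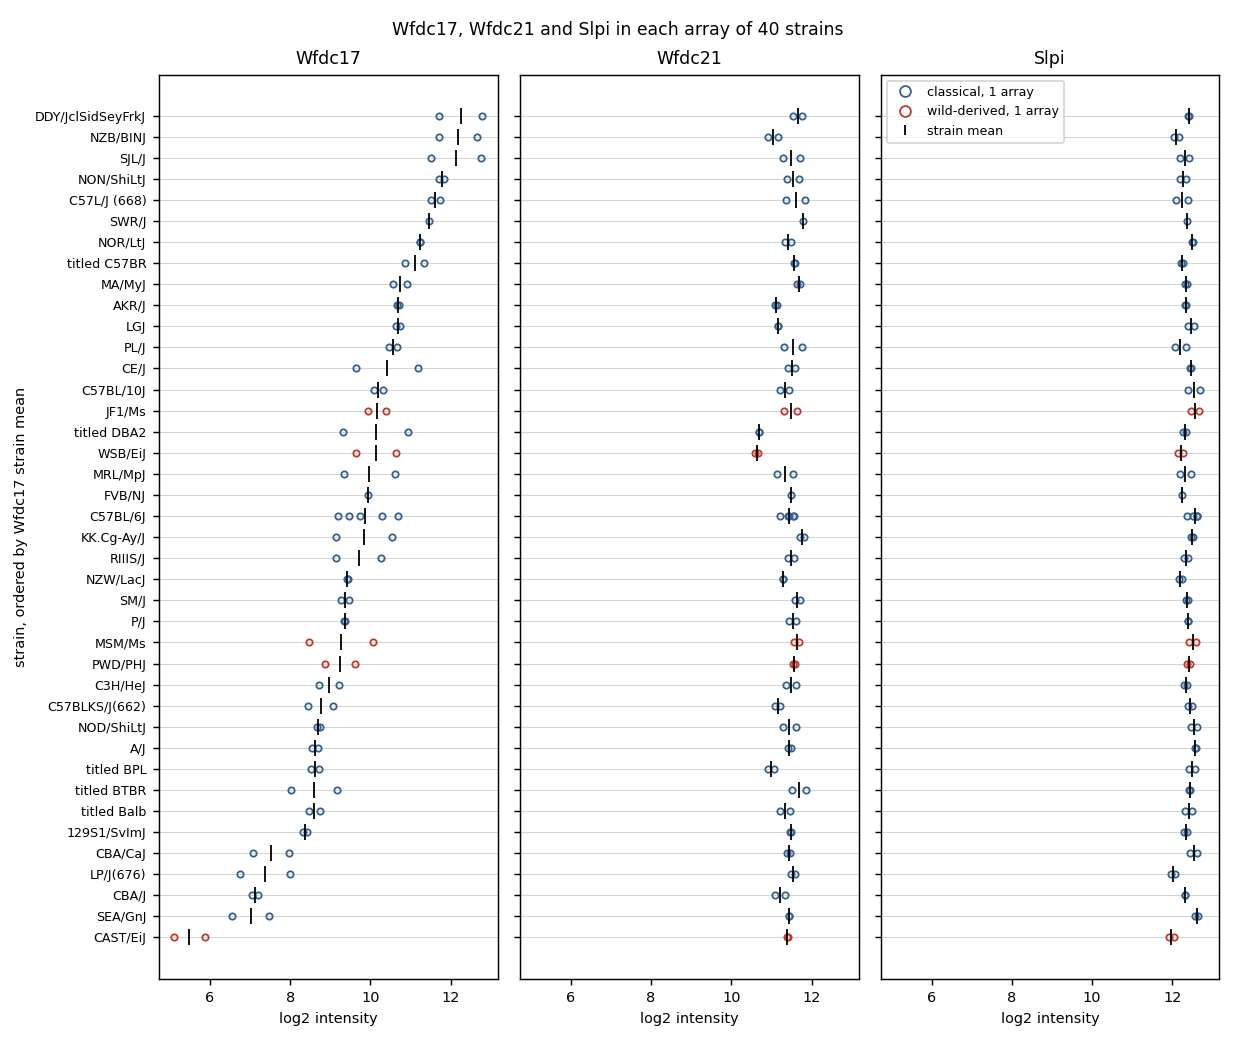
Log2 intensity of Wfdc17, Wfdc21 and Slpi (x axis, the same scale in each panel) in 40 strains ordered by the Wfdc17 mean (y axis); open circles are single arrays, red for wild-derived and blue for classical strains, and black ticks are strain means. Wfdc17 runs from 5.49 in CAST/EiJ to 12.24 in DDY/JclSidSeyFrkJ, while the strain means of Wfdc21 span 1.15 and those of Slpi 0.64 log2 units.

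Arrays of 1 strain also differed more for Wfdc17 than for most probe sets. The SD between arrays of a strain, pooled over strains, was 0.576 for Wfdc17, larger than for 99.9% of all probe sets. Among 1854 probe sets of similar mean, the median was 0.156 and Wfdc17 lay above 99.8%. In 11 of 38 strains with more than 1 array the lowest and highest array were over 1 log2 unit apart, with the largest gap between 2 arrays in titled DBA2 (10.95 and 9.33). Other wide pairs were MSM/Ms at 10.07 and 8.47 and CE/J at 11.19 and 9.65. By contrast NZW/LacJ had 9.42 and 9.43 and NOR/LtJ 11.24 and 11.23. Wfdc21, with a within-strain SD of 0.154, and Slpi, with 0.0999, were near the median of probe sets of similar mean (0.128 and 0.108).

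**Figure D2:**
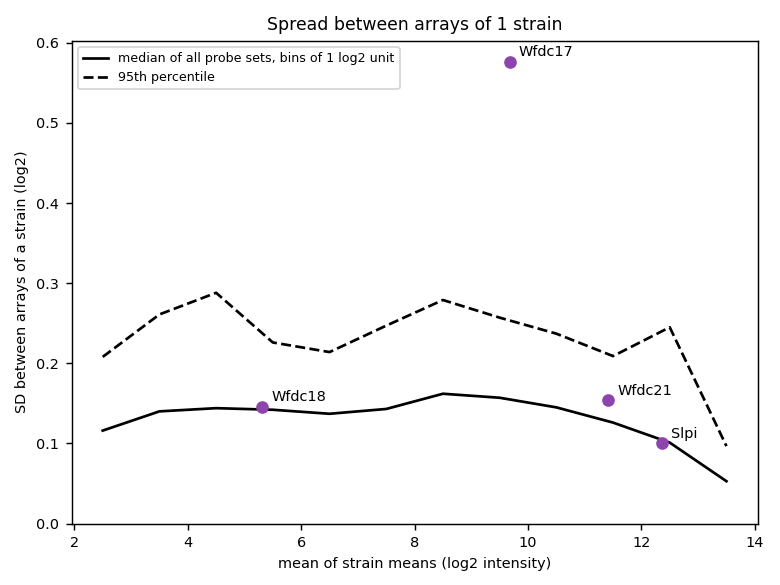
SD between arrays of a strain (y axis, log2) against the mean of strain means (x axis, log2 intensity); the solid line is the median and the dashed line the 95th percentile of all probe sets in bins of 1 log2 unit, and points are Wfdc17, Wfdc21, Slpi and Wfdc18. Wfdc17 at 0.576 lies far above the dashed line, and the other 3 lie near the solid line.

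Wfdc21 differed little among most strains, with a few low strains setting its range. The strain means had a median of 11.48 and an SD of 0.252, and ran from 10.63 ± 0.055 (SD, n = 2) in WSB/EiJ to 11.78 in the single SWR/J array, a 2.22-fold range. WSB/EiJ arrays were at 10.67 and 10.60 and titled DBA2 arrays both at 10.69, below all arrays of the other strains. The next lowest were titled BPL at 10.99 ± 0.11, NZB/BINJ at 11.05 ± 0.19 (10.91 without the array that stood apart) and AKR/J at 11.12 ± 0.032. After these came C57BLKS/J(662) at 11.15 ± 0.085, LGJ at 11.17 ± 0.0051, CBA/J at 11.21 ± 0.18 and NZW/LacJ at 11.29 ± 0.0015. C57BL/10J (11.33 ± 0.16), MRL/MpJ (11.34 ± 0.28) and titled Balb (11.34 ± 0.19) led to a dense middle. In it 22 strains lay between CAST/EiJ at 11.40 ± 0.029 and MSM/Ms at 11.63 ± 0.085, C57BL/6J among them with arrays at 11.21, 11.55, 11.41, 11.56 and 11.45. The top was formed by SM/J at 11.64 ± 0.085, DDY/JclSidSeyFrkJ at 11.65 ± 0.16, MA/MyJ at 11.68 ± 0.052, titled BTBR at 11.68 ± 0.25 and KK.Cg-Ay/J at 11.75 ± 0.070, with SWR/J above. The largest step between neighbours, 0.30 from titled DBA2 to titled BPL, did not pass 2 SE, nor did any other of the 39. Of 780 pairs of strains 8 differed at least 2-fold.

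Slpi was the most even of the 3 genes, though not unusually even. Its SD of strain means lay above that of 54.4% of all probe sets and of 43.2% of those of similar mean. Its strain means ran from 11.98 ± 0.083 (SD, n = 2) in CAST/EiJ to 12.62 ± 0.051 (SD, n = 2) in SEA/GnJ, a 1.56-fold range, with an SD of 0.149, and no pair of strains differed 2-fold. The low end was set by CAST/EiJ with arrays at 12.04 and 11.92, LP/J(676) at 11.97 and 12.06 and NZB/BINJ at 12.17, in the array that stood apart, and 12.03. These 3 strains overlapped. Next were PL/J at 12.20 ± 0.19, NZW/LacJ at 12.20 ± 0.042 and WSB/EiJ at 12.21 ± 0.090. The high end held SEA/GnJ with 12.58 and 12.65, A/J with 12.56 and 12.59 and JF1/Ms with 12.66 and 12.46. C57BL/6J had the arrays 12.38, 12.63, 12.62, 12.63 and 12.53, and NOD/ShiLtJ followed at 12.54 ± 0.10. The remaining strains lay between FVB/NJ at 12.23 in its 1 array and C57BL/10J at 12.54 ± 0.21. None of the 39 steps between neighbours passed 2 SE. CAST/EiJ was thus lowest for both Wfdc17 and Slpi but stood at 11.40 for Wfdc21, and SEA/GnJ was second lowest for Wfdc17 and highest for Slpi.

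Among themselves the 3 members did not order the strains alike. Over the 40 strain means Pearson's r was 0.060 for Wfdc17 with Wfdc21, -0.023 for Wfdc17 with Slpi and 0.13 for Wfdc21 with Slpi. Spearman's rho was 0.18, -0.20 and 0.047. Without the 2 strains farthest from the median of the first gene named, r was 0.072, -0.18 and 0.022. With the 2 strains farthest from the median of the second gene left out instead, r was 0.15 for Wfdc17 with Wfdc21, -0.44 for Wfdc17 with Slpi and 0.20 for Wfdc21 with Slpi. The relation of Wfdc17 and Slpi therefore depended on which strains were used. Differences between the 2 arrays of a strain, taken as higher minus lower replicate number in 37 strains and looked at after the strain values had been seen, gave r of 0.39, 0.19 and 0.46. Points of a correlation share arrays and their normalization.

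Those array differences moved with array-wide shifts in different degrees. The leading component of the array differences over 10439 genes held 26.5% of their variance and the second 12.9%. The absolute correlation with the first was 0.081 for Wfdc17, 0.58 for Wfdc21 and 0.18 for Slpi, and with the second 0.35, 0.34 and 0.59. Of 10441 other genes, 26 had a positive and 4 a negative r beyond 0.5 in size with the Wfdc17 differences, against 187 and 940 for Wfdc21 and 1052 and 88 for Slpi. Their part in the array correlations was not tested.

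Wfdc18, which follows Wfdc17 in the reference gene order, was described alongside after its values had been seen. Its strain means ran from 4.96 ± 0.063 (SD, n = 2) in titled Balb to 5.88 ± 0.14 (SD, n = 2) in DDY/JclSidSeyFrkJ, which was also the highest strain for Wfdc17. Next highest were NZB/BINJ at 5.72 (5.61 without the array that stood apart), PL/J and SJL/J at 5.70, WSB/EiJ at 5.67 and KK.Cg-Ay/J at 5.63. With Wfdc17 its strain means gave r = 0.68 and rho = 0.77 over 40 strains, with r = 0.72 without the 2 strains farthest from the Wfdc17 median and 0.61 without the 2 farthest from the Wfdc18 median. That was the highest r with Wfdc17 among 19751 genes. The array differences gave r = 0.53 over 37 strains. Without the NZB/BINJ array that stood apart r over strains was 0.67. Single arrays of Wfdc18 spanned 30.2 to 63.7 intensity units, a much smaller span than that of Wfdc17. All of them lay below the median of every array (97.2 or more). No background level was used, so whether they measure Wfdc18 RNA above background was not tested. Probe sequences were not used here, so whether RNA of one gene adds to the signal of the other was not tested. With Wfdc21, the next gene on, Wfdc18 had an r of 0.024.

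**Figure D3:**
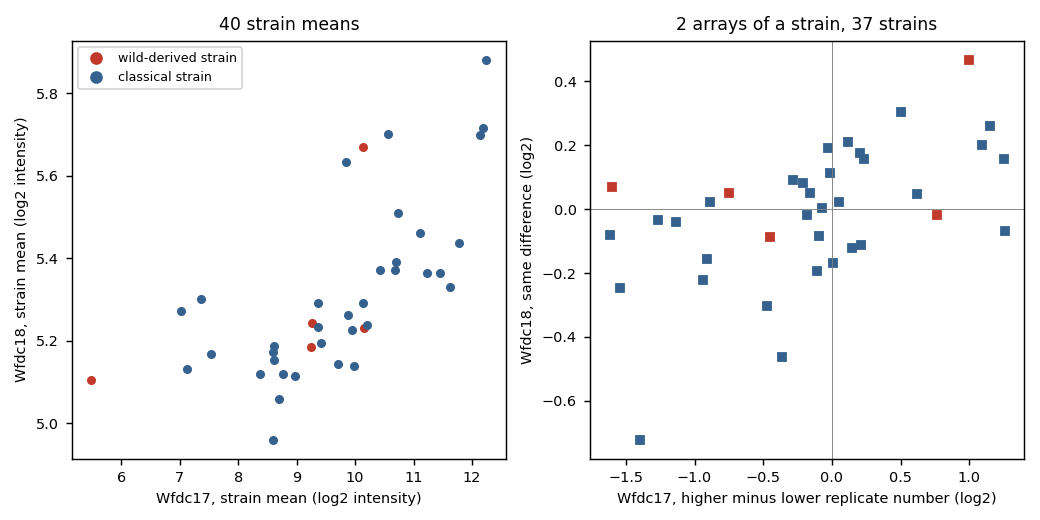
Left, strain means of Wfdc18 (y axis, log2 intensity) against Wfdc17 (x axis, log2 intensity) in 40 strains; right, the difference between the 2 arrays of a strain for the same genes in 37 strains; red marks wild-derived and blue classical strains. The points rise together, with r = 0.68 on the left and r = 0.53 on the right, and Wfdc18 covers 4.96 to 5.88 while Wfdc17 covers 5.49 to 12.24.

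Pairs of strains, many but not all with shared ancestry, were compared next, as descriptions, since Wfdc17 had been chosen for its spread. The diabetes-prone NOD/ShiLtJ had Wfdc17 arrays at 8.73 and 8.66 and the diabetes-resistant NOR/LtJ at 11.24 and 11.23. The difference was -2.54 ± 0.53 (SE), a 5.81-fold gap, and the arrays did not overlap. NON/ShiLtJ exceeded NOD/ShiLtJ by 3.08 ± 0.53 (SE), or 8.44-fold, again without overlap. NZB/BINJ exceeded NZW/LacJ by 2.76 ± 0.53 (SE), and by 2.29 without the array that stood apart. In these 3 pairs Wfdc21 differed by 0.035 ± 0.15, 0.087 ± 0.15 and -0.25 ± 0.15 (SE), and Slpi by 0.049 ± 0.11, -0.28 ± 0.11 and -0.10 ± 0.11 (SE). Without the array that stood apart the NZB/BINJ and NZW/LacJ difference was -0.38 for Wfdc21 and -0.17 for Slpi.

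Other pairs were closer for Wfdc17. LGJ exceeded SM/J by 1.32 ± 0.53 (SE), while for Wfdc21 the same pair went the other way, with 11.17 and 11.18 in LGJ against 11.58 and 11.70 in SM/J and a difference of -0.47 ± 0.15 (SE). C57BLKS/J(662), largely of C57BL/6J descent, lay at 8.45 and 9.07, below all 5 arrays of C57BL/6J, by -1.11 ± 0.44 (SE). LP/J(676) differed from 129S1/SvImJ by -0.9965 ± 0.53 (SE) for Wfdc17 and -0.31 ± 0.11 (SE) for Slpi, and neither pair of arrays overlapped. For Wfdc17 that difference was -1.63 or -0.36 depending on which LP/J(676) array was left out, and for Slpi it was -0.20 after quantile normalization. MRL/MpJ lay below LGJ by -0.71 ± 0.53 (SE), and by -0.082 or -1.34 with 1 MRL/MpJ array left out. The arrays overlapped between JF1/Ms and MSM/Ms (0.88 ± 0.53, and 1.69 or 0.082 with 1 MSM/Ms array left out), between CBA/J and CBA/CaJ (-0.39 ± 0.53) and between C57BL/10J and C57BL/6J (0.32 ± 0.44). With 1 CBA/CaJ array left out the CBA difference was 0.048 or -0.84. That of C57BL/10J and C57BL/6J was 0.15 to 0.53 with 1 array left out and -0.001 with the replicate number as a block.

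**Figure D4:**
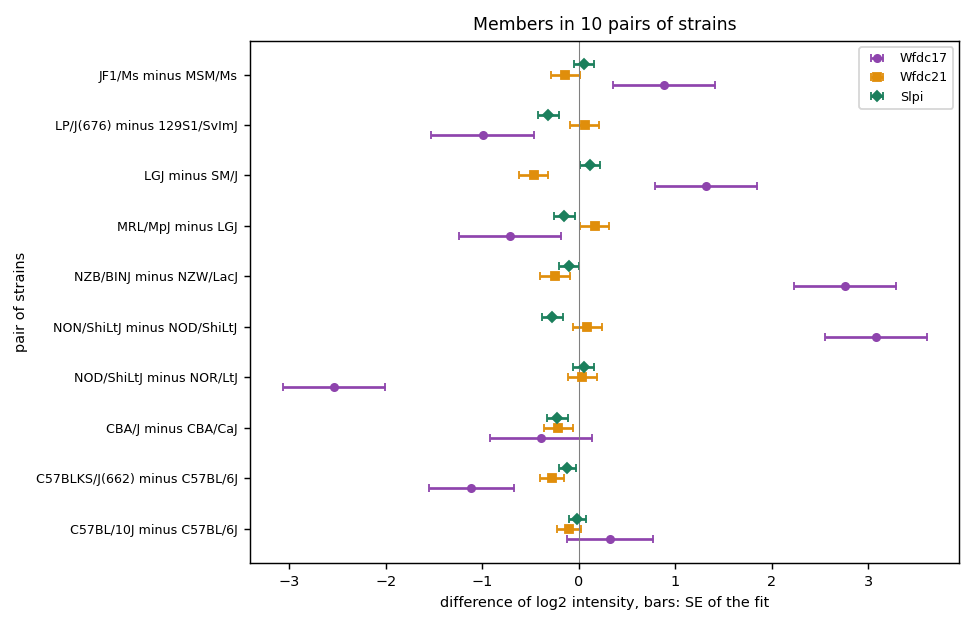
Difference of log2 intensity, first strain minus second (x axis), for Wfdc17, Wfdc21 and Slpi in 10 pairs of strains (y axis); points are differences of strain means and bars the SE of the fit. Wfdc17 reaches -2.54 for NOD/ShiLtJ minus NOR/LtJ and 3.08 for NON/ShiLtJ minus NOD/ShiLtJ, while all differences of Wfdc21 and Slpi lie between -0.47 and 0.17.

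Strains derived from wild mice were compared with classical strains, a contrast that did not itself serve to choose the members. It uses the same strain means, whose spread for Wfdc17 was known at the choice, with CAST/EiJ at its low end. The result for Wfdc17 is therefore a description and not an independent test. None of the 3 genes was called. Wfdc17 averaged 8.86 ± 1.93 (SD, n = 5) in the wild-derived strains WSB/EiJ, PWD/PHJ, CAST/EiJ, MSM/Ms and JF1/Ms and 9.80 ± 1.45 (SD, n = 35) in classical strains. The difference was -0.94 ± 0.70 (SE; limma, adjusted p = 0.41), with a 95% interval from -2.35 to 0.46, and 2 of the 5 wild-derived strains lay above the classical median. The difference rested on CAST/EiJ and was -0.10 without it (limma, adjusted p = 0.951). Wfdc21 differed by -0.079 ± 0.12 (SE; limma, adjusted p = 0.72; interval -0.32 to 0.16) and Slpi by -0.040 ± 0.072 (SE; limma, adjusted p = 0.775; interval -0.18 to 0.10), each with 3 of 5 wild-derived strains above the classical median. In limma 3039 of 24922 probe sets (12.2%) were called in this comparison. The interval of Wfdc17 includes differences of more than 2-fold, and those of Wfdc21 and Slpi do not. A sequence variant under a probe and a lower transcript level cannot be told apart in strains other than C57BL/6J.

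Most genes around the members had a smaller spread among strains than Wfdc17. In the reference gene order on chromosome 11, Wfdc17 lies between the chemokine gene Ccl4 and Wfdc18, followed by Wfdc21 and Heatr6. Of these neighbours the chemokine Ccl3, which attracts monocytes and neutrophils, had the widest strain means after Wfdc17, from 6.91 to 10.43 with an SD of 0.88. Ccl3 was lower in wild-derived strains by -1.24 (limma, adjusted p = 0.019), and its r with Wfdc17 over strains was -0.24. SDs were 0.40 for Ccl9, 0.21 for Ccl6, 0.17 for Ccl4 and 0.28 for Heatr6, with r against Wfdc17 between -0.32 and -0.040. On the other side of Wfdc21, Ddx52 and Synrg had SDs of 0.23 and 0.12.

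On chromosome 2 Slpi stands between the seminal vesicle genes Svs4, Svs3a, Svs6 and Svs5 and the genes Matn4, Rbpjl, Sdc4 and Sys1. The 4 Svs genes had SDs of 0.096, 0.14, 0.10 and 0.099. Sys1, a Golgi membrane protein gene, had an SD of 0.31 and an r with Slpi of 0.35 over strains and 0.72 over array differences. Over array differences 1052 of 10441 genes had an r with Slpi over 0.5. Sys1 was lower in wild-derived strains by -0.51 (limma, adjusted p = 0.0045), while Slpi was not called.

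The genes most like each member over strain means were looked up among 10441 genes, each with at least 1 strain mean of 7 or more. For Wfdc17 these were H2-M3, a class I molecule that presents formylated peptides (r = 0.62), the transglutaminase Tgm1 (0.60), the sulfiredoxin Srxn1 (0.57), Cela3b (0.55), the transcription factor Zbtb17 (0.54) and Gnptg (0.54). The most opposed were the lysosomal mannosidase Manba (-0.62), Ints10 (-0.61) and the chromatin factor Jarid2 (-0.58). Without the 2 strains farthest from the Wfdc17 median H2-M3 stood at 0.59, Tgm1 at 0.66 and Cela3b at 0.39. Tgm1 also had an r of 0.49 over array differences, whereas H2-M3 had -0.22.

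Over array differences another group of genes was most like Wfdc17. These were the uridine phosphorylase Upp1 (r = 0.74 over 37 strains), the interferon-inducible membrane protein Ifitm1 (0.74), the metalloreductase Steap4 (0.73), Prr5l (0.70), Bcl3, a nuclear member of the IkB family (0.63), and Ppp1r3d (0.61). Over strain means the same genes had r of 0.42, -0.025, 0.24, 0.40, 0.44 and 0.35. The most opposed were the B cell survival factor Tnfsf13b (-0.57), Nrp1 (-0.53) and the matrix protein Thbs1 (-0.52). This look-up was added after the strain values had been seen, and none of these correlations carries a p.

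For Wfdc21 the most like genes over strain means were the autophagy gene Atg101 (0.63), the adhesion receptor Adgrg3 (0.61), the D-type cyclin Ccnd3 (0.59), Crtc1 (0.54), Agap1 (0.53) and the chloride transporter Slc12a5 (0.52). The most opposed were Txndc12 (-0.58), Kti12 (-0.55) and Hltf (-0.52). Without the 2 strains farthest from the Wfdc21 median Adgrg3 stood at 0.40 and Hltf at -0.28. For Slpi they were Sharpin, a subunit of the linear ubiquitin ligase (0.69), Tmem223 (0.69), Uxt (0.68), the biotinidase Btd (0.67), Yipf3 (0.67) and 1810058I24Rik (0.67). The most opposed to Slpi were the perforin-like Mpeg1 (-0.64), Asap2 (-0.57) and Fbxo34 (-0.56). Sharpin, Yipf3 and Tmem223 also had high r with Slpi over array differences, 0.77, 0.83 and 0.73, and Mpeg1 had 0.020. High r with Slpi was common. Of 10441 genes, 1052 had an r over 0.5 over array differences and 241 over strain means.

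Of the whole WAP family 23 genes were measured. Leaving out the 3 members, 6 of 20 differed among strains in limma's F test, where 56.0% of all probe sets did. Of these 20 only Wfdc11 (7.89), Wfdc15a (7.07) and Wfikkn1 (7.47) had a mean of at least 7. The others averaged less, and whether their signals rose above background was not tested. With a range of at least 2-fold the share of all probe sets was 24.5%, and 42.5% among those with a mean of at least 7. Apart from the members only Wfdc10 met that range. Wfdc10 stood at 9.46 in CAST/EiJ, and the next highest strain mean was 6.86. The other called genes were Wfdc1, Wfdc2, Wfdc11, Wfdc12 and Wfdc18, with SDs between 0.10 and 0.21. Wfdc1, Wfdc2, Wfdc3, Wfdc5, Wfdc13, Wfdc15b and Wfikkn2 all had their highest mean in NZB/BINJ. Without the NZB/BINJ array that stood apart only Wfdc1 and Wfdc3 of these had it there, and 3 of the 20 were called. Genes not called were Wfdc3, Wfdc5, Wfdc6a, Wfdc6b, Wfdc8, Wfdc9, Wfdc13, Wfdc15a, Wfdc15b, Wfdc16, Wap, Eppin, Wfikkn1 and Wfikkn2, with SDs between 0.079 and 0.18. The median SD over strains was 0.12 in the family, members included, and 0.14 over all probe sets.

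By origin 2 of the 23 WAP genes were called, where 12.2% of all probe sets were, and both were higher in wild-derived strains. Wfdc10 was higher by 0.71 ± 0.19 (SE; limma, adjusted p = 0.0086). Its SD was 1.22 among the 5 wild-derived strains and 0.096 among the 35 classical ones. The SE pools both, so it does not measure the spread among wild-derived strains. Without CAST/EiJ the Wfdc10 difference was 0.17 ± 0.051 (SE; limma, adjusted p = 0.030). Wfdc11 was higher by 0.17 ± 0.054 (SE; limma, adjusted p = 0.030), and each of the 5 wild-derived strains exceeded the median of the classical ones. The median difference of the family was 0.053 against 0.026 over all probe sets. Wfdc11 was not called with JF1/Ms, PWD/PHJ or WSB/EiJ left out (limma, adjusted p = 0.087, 0.13 and 0.060), while Wfdc10 was called with any 1 of the 5 strains left out.

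**Figure D5:**
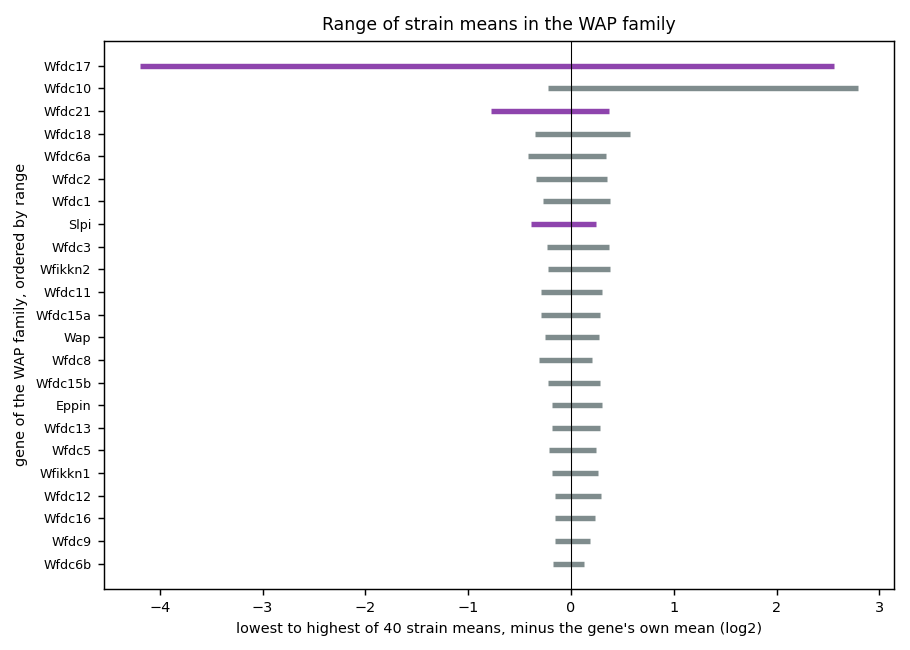
Range of the 40 strain means of 23 WAP family genes around each gene's own mean (x axis, log2), with the members in purple and the other genes in grey (y axis, ordered by range). Wfdc17 spans 6.76 log2 units, Wfdc10 is drawn out by CAST/EiJ at 9.46, and the rest stay close to their means.

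Inhibitors of other families were measured on the same arrays. Of 10 measured cystatins and stefins, inhibitors of cysteine proteases, 7 were called among strains and 5 of them at least 2-fold, beside 56.0% and 24.5% of all probe sets. Stfa2 ran from 5.29 in JF1/Ms to 11.22 in NOR/LtJ, Stfa3 from 4.73 in JF1/Ms to 9.47 in SEA/GnJ, Csta3 from 4.30 in MSM/Ms to 7.22 in NOR/LtJ and Cstdc6 from 4.95 in PWD/PHJ to 7.95 in NOR/LtJ. By origin 3 of the 10 were called, beside 12.2% of all probe sets. In wild-derived strains Stfa2 (-2.53 ± 0.52), Stfa3 (-2.39 ± 0.46) and Csta3 (-1.04 ± 0.32; SE, limma, adjusted p = 0.024) were lower. Stefin genes are near-identical copies, and how their probes share signal is uncertain. NOR/LtJ, high for stefins, was also high for Wfdc17, yet over 40 strains the list mean had an r of 0.040 with Wfdc17 and of 0.43 over array differences.

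Of 17 measured serpins, inhibitors of serine proteases, 6 were called and 3 at least 2-fold, again beside 56.0% and 24.5% of all probe sets. Serpinb6a ran from 6.13 in WSB/EiJ to 8.21 in FVB/NJ, and Serpinb10 from 11.51 in C57BL/6J to 12.83 in NZW/LacJ. Serpinb1a, which blocks elastase and cathepsin G inside the neutrophil, ran from 11.40 in NZB/BINJ (11.49 without the array that stood apart) to 12.23 in titled Balb. Serpina1c ran from 3.57 in AKR/J to 5.67 in CAST/EiJ, and its copies may share signal. By origin 1 of the 17 serpins was called, beside 12.2% of all probe sets. This was Serpina1d, higher in wild-derived strains by 0.20 ± 0.056 (SE; limma, adjusted p = 0.013). Its mean was only 4.94, its highest strain mean was 5.44 in MSM/Ms, and the count of serpins called ran from 0 to 1 over 16 alternatives. Of 5 metalloprotease inhibitors 4 were called among strains, with Timp3 at 10.08 in C57L/J (668) against a mean of 5.60. By origin 2 of the 5 were called, beside 12.2% of all probe sets. These were Timp2 and Reck, lower in wild-derived strains by -0.23 and -0.14 (limma, adjusted p = 0.012 and 0.032). Timp4 was the remaining gene called among strains.

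Proteases that such inhibitors act on were followed too. All 9 genes of neutrophil proteases and their activation were called among strains, 2 of them at least 2-fold, where 56.0% and 24.5% of all probe sets were, and 42.5% at least 2-fold among those with a mean of at least 7. These were Ctsc, which activates granule serine proteases, from 6.05 in SM/J to 8.05 in SJL/J, and the serine protease Prss57, from 6.88 in WSB/EiJ to 8.07 in NON/ShiLtJ. Elastase (Elane) ran from 6.46 in MSM/Ms to 7.45 in NON/ShiLtJ and cathepsin G (Ctsg) from 5.18 in LGJ to 5.97 in NZB/BINJ, or to 5.94 in titled BTBR without the array that stood apart. Elane, proteinase 3 (Prtn3) and Ctsg averaged only 6.76, 6.64 and 5.53. Whether these signals rose above background was not tested. By origin only Prss57 of the 9 genes was called, beside 12.2% of all probe sets, and was lower by -0.38 ± 0.11 (SE; limma, adjusted p = 0.019). Against the list mean r over strains was 0.14 for Wfdc17, 0.13 for Wfdc21 and 0.23 for Slpi, and over array differences 0.45, 0.058 and 0.089. Without the 2 strains with the most extreme array differences of Wfdc17 the 0.45 was 0.36.

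Granule, inflammatory and cell cycle genes were set against the members over strains. Of 15 inflammatory response genes 13 were called among strains, 8 at least 2-fold, beside 56.0% and 24.5% of all probe sets. Their mean, from 8.94 in LGJ to 9.67 in NZB/BINJ (10.08 without the array that stood apart), had an r of 0.37 with Wfdc17, 0.0037 with Wfdc21 and -0.25 with Slpi. Cd14, the lipopolysaccharide co-receptor, ran from 6.26 in titled C57BR to 10.91 in SWR/J, Ptgs2 from 6.19 in MSM/Ms to 9.55 in NZB/BINJ, Acod1 from 6.95 in NZW/LacJ to 9.18 in SM/J and Cxcl2 from 5.14 in titled Balb to 8.18 in NZB/BINJ. Without the array that stood apart NZB/BINJ was at 10.43 for Cxcl2 and 11.24 for Ptgs2, each the value of 1 array. The array that stood apart was lower for both genes. The next highest strain means were 6.65 for Cxcl2 and 8.25 for Ptgs2. Whether these peaks belong to the strain cannot be told from its 2 arrays. Of 10 azurophil genes 9 were called and 4 at least 2-fold, of 13 specific granule genes 9 and 4, of 10 late neutrophil genes 9 and 5, and of 16 cell cycle genes all 16 and 16. Against Wfdc17 the means of these 4 lists had r of 0.049, -0.071, 0.12 and -0.027 over strains and 0.31, 0.038, 0.18 and -0.054 over array differences, where the inflammatory list had 0.14.

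Markers of other marrow cells were followed beside Wfdc17, which macrophages also express. Of 13 measured monocyte and macrophage markers 12 were called among strains, 9 of them at least 2-fold, beside 56.0% and 24.5% of all probe sets, and the list mean ran from 6.66 in FVB/NJ to 7.43 in titled BTBR. Its r with Wfdc17 was 0.18 over strain means and -0.12 over array differences. The complement genes C1qa, C1qb and C1qc, Vcam1 and Ms4a7 peaked in titled BTBR, where Wfdc17 was at 8.60 ± 0.81 (SD, n = 2). Adgre1, the F4/80 antigen, was lowest in KK.Cg-Ay/J (6.40) and highest in 129S1/SvImJ (9.08), strains at 9.85 and 8.37 for Wfdc17. Csf1r peaked in CAST/EiJ, the lowest strain for Wfdc17, Ccr2 in a strain at 8.76 for Wfdc17, and Cd68 in KK.Cg-Ay/J. F13a1 instead peaked in DDY/JclSidSeyFrkJ, the highest strain for Wfdc17. Ly86 and Fcgr1 peaked in NZB/BINJ, at 6.91 and 6.83 (7.35 and 6.83 without the array that stood apart). NZB/BINJ was next highest for Wfdc17 at 12.18, or at 11.72 without that array. The eosinophil list had an r of 0.35 with Wfdc17 over strains and -0.082 over array differences, the basophil and mast cell list 0.33 and -0.38, and the dendritic cell list -0.30 and -0.037. The part of these cells in the Wfdc17 levels was not tested.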

How the data were processed

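Each array gave 1 intensity per probe set, on the linear scale as deposited by the authors. RMA and Affymetrix Power Tools are named in the submitters' processing notes, with no version given. The labels' protocols give TriZol extraction and a WT Terminal Labeling kit. The build behind the probe sets is not given in the sources used here. Each value was turned into its log2 without rescaling. The platform's annotation assigned 1 symbol to 21425 probe sets, several to 1399 and none to 2098, and of several probe sets for 1 gene the brightest stood for it. Neighbour order came from a RefSeq table of assembly GRCm38.p6, in which 19677 of 19752 genes were found. Wfdc21 has no promoter entry.

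Tests used limma 3.58.1 in R 4.3.3 (lmFit, eBayes, Benjamini-Hochberg over all 24922 probe sets; a call needed an adjusted p below 0.05). The strain fit used 1 mean per group over 81 arrays, with 41 residual degrees of freedom, and origin used strain means, 5 against 35. Wild-derived status follows common knowledge of strain names. Pair differences carry the SE of the first fit, which pools the spread over strains. Named genes were the members, the WAP family and up to 4 called genes of each other list by difference or SD. Of the monocyte and macrophage list all called genes were named. Further named genes were the 6 most and 3 least correlated genes per member and 4 neighbours on each side. Members, lists and rules were chosen with earlier results of these data known. Scripts were tested on simulated data. Alternatives are given with the closing section. Same-numbered arrays had a median correlation of deviations of 0.0012 over 1409 pairs, from -0.589 to 0.505, with 333 pairs over 0.1. The main fits did not use replicate numbers, and whether some same-numbered arrays share a batch was not tested. The number of arrays limits the precision.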

Additional observations from a re-analysis of the deposited data

Results flagged for a closer look

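Dixon's gap ratio, the gap of the most extreme value to its neighbour over the whole range, was taken over the 5 wild-derived strain means and over the 5 C57BL/6J arrays of Wfdc17, Wfdc21, Slpi and Wfdc18. About 1 in 20 groups would pass by chance if they had not been picked on their values. The strain means were known when these genes were picked, so the ratios over wild-derived strains describe the values and are no test. For Wfdc17 the ratio over wild-derived strains was 0.805, with CAST/EiJ at 5.49 and PWD/PHJ, the next strain, at 9.24. For Wfdc21 it was 0.77, with WSB/EiJ at 10.63 below CAST/EiJ at 11.40. For Wfdc18 it was 0.754, with WSB/EiJ at 5.67 above MSM/Ms at 5.24. Slpi had 0.396 over the same strains. Over the C57BL/6J arrays, where none of the 4 genes passed, the ratios were 0.273, 0.595, 0.608 and 0.161. The most distant strain was CAST/EiJ for Wfdc17 and WSB/EiJ for Wfdc21 and Wfdc18, and that difference was not tested.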

How the results depend on the processing

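Over 87 alternatives the SD of strain means was 1.49 to 1.58 for Wfdc17, 0.220 to 0.259 for Wfdc21 and 0.146 to 0.165 for Slpi. Most of these alternatives left out 1 array. All values lay within the SD between arrays of a strain (0.576, 0.154 and 0.0999) of the main value. That margin is wide beside the main values of 1.52, 0.252 and 0.149. No member was called between origins under any of 16 alternatives, with differences from -1.27 to -0.10 for Wfdc17, -0.15 to 0.098 for Wfdc21 and -0.097 to 0.049 for Slpi. The count of probe sets called between origins depended on the strains used. It ran from 1796 to 3593 when 1 wild-derived strain was left out and was 1785 with JF1/Ms and MSM/Ms counted as 1 strain. Probe sets called among strains numbered 9427 to 14966 over the alternatives, and 9427 came from testing only those with a mean of at least 7. With the replicate number as a block 13465 were called among strains and 3043 between origins, and the Wfdc17 origin difference was -0.96. Pair differences were recomputed 228 times over the alternatives, and 28 of these values moved by more than the spread between arrays. Quantile normalization turned the Slpi difference of NZB/BINJ and NZW/LacJ to 0.070. The correlation of Wfdc17 with Wfdc18 was 0.68 and lay between 0.665 and 0.673 under the alternatives. Of 2147 recomputed counts, over all probe sets or within a list, 83 moved by more than 1.5 times. Leaving out the NZB/BINJ array for the origin comparison, the correlations and the list extremes, and leaving out each wild-derived strain for single WAP genes, were chosen after seeing the data. No member has a further probe set, so that alternative was not run. The number of arrays per strain, 2 in most, limits what a difference between neighbouring strains can show.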
